A study of Caenorhabditis elegans with 3 samples.

Results

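The autosomal intronic EGL-27 peaks were 166 regions of the worm genome. They were chosen from the authors' pooled peak list, which held 23217 nuclear peaks. The list was ranked by the signal value that the authors' peak caller gave each peak, and the first 1500 peaks were kept. A peak was a member when it lay on an autosome and its summit lay inside a protein-coding gene but in no annotated exon. The summit also had to lie outside every promoter window, which ran from 1000 bp upstream to 500 bp downstream of a protein-coding transcript's 5′ end. The 166 members were 11.1% of the first 1500 peaks and 14.3% of the 1163 autosomal ones. The other autosomal peaks were 620 in promoter windows, 280 between genes and 97 in exons, and a further 337 peaks lay on chromosome X. A reading of the rule that bars protein-coding exons only would add 30 peaks in non-coding exons, for 196.

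The data came from chromatin immunoprecipitation sequencing (ChIP-seq) of whole first-stage (L1) larvae of Caenorhabditis elegans, with both sexes pooled. All worms were of strain OP177, genotype unc-119(ed3) III; wgIs177. The integrated transgene wgIs177 carries egl-27 fused to a green fluorescent protein tag, and it is present beside the worms' own egl-27 gene. The 3 biological replicates formed 1 group, and no untagged or otherwise treated sample was part of the data used here. Replicates 1 and 2 came from the worm stock centre and replicate 3 from the submitting laboratory, so the source of the worms and the replicate cannot be told apart. A larva holds many cell types, so a peak in few cells and a weak peak in many cells cannot be told apart.

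EGL-27 resembles the MTA subunits of the nucleosome remodelling and deacetylase (NuRD) complex, a machine that slides nucleosomes and removes acetyl groups from histones. It carries a GATA-type zinc finger and is known in worms for roles in cell polarity, cell migration and the patterning of the larval epidermis. Introns of worm genes can hold enhancers, promoters of shorter transcripts of the same gene, and small non-coding RNA genes.

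Sequence windows of 101 bp centred on the summit are shown for 6 members, from the plus strand of build ce11 (WBcel235, sequence from RefSeq). The first 5 are the members of highest signal, and the sixth, in daf-5, is the member of highest signal with a GATA site. Capitals mark matches on either strand. The motifs shown are a GA repeat (GAGAGA, which reads as TCTCTC on the other strand), the 9-base motif CTGCGTCTC, the palindromic E-box CACGTG and a GATA site (the letters GATA with A or T before them and A or G after them). The GA repeat and the 9-base motif share the letters TCTC and can overlap, as they do in the second pqn-41 window. The daf-5 window has GA repeats that run into GATA sites read on the other strand.
Y111B2A.12 (chrIII:12612611-12612711): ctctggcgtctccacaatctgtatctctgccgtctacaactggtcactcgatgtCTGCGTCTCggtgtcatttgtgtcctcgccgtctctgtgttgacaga
pqn-41 (chrIII:1921420-1921520): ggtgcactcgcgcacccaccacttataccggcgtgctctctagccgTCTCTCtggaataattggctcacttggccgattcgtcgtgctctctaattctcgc
Y43F8B.2 (chrV:19529316-19529416): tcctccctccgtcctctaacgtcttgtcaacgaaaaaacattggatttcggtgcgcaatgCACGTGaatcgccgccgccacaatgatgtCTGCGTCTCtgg
pqn-41 (chrIII:1926578-1926678): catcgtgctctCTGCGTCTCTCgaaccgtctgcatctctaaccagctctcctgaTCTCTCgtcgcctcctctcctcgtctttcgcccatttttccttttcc
pqn-41 (chrIII:1925311-1925411): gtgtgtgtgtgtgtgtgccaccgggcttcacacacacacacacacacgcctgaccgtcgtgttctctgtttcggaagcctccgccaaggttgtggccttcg
daf-5 (chrII:14040464-14040564): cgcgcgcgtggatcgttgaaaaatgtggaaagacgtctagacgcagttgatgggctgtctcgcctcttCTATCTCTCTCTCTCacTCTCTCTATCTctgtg

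The signal that chose the members ranged from 22.6 to 252.5, with a median of 30.4. Promoter peaks chosen by the same limit had a median of 30.8 and intergenic ones 30.4. Of the 166 members, 79 (47.6%) were also in the authors' list thresholded by the irreproducible discovery rate (IDR), which held 705 peaks. The same number of members lay among the first 705 peaks by signal. IDR membership therefore went with the signal that chose the members and is a description. The last member inside the limit was in K10H10.13, at rank 1494 and signal 22.63, and the first intronic peak outside was in Y54G2A.26, at rank 1502 and signal 22.59. All but 4 members were 390 bp wide, and those 4 were 101, 103, 162 and 275 bp wide. Peaks overlapped in 3 pairs of members, in T28F4.1, pqn-41 and pkg-2, so these pairs share sequence and replicate peaks.

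All 5 autosomes held members, from 24 on chromosome V to 43 on chromosome III. Chromosome I had 33, chromosome II had 29 and chromosome IV had 37. Intron sequence in which a summit could have been a member came to 19.8 Mb, and its density of members was 8.40 per Mb. By chromosome the density was 7.34 per Mb on I, 8.84 on II, 10.7 on III, 9.41 on IV and 5.96 on V. The median signal was between 29.6 and 31.8 on every autosome, while the highest differed more, from 64.8 on IV to 252.5 on III.

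**Figure D1:**
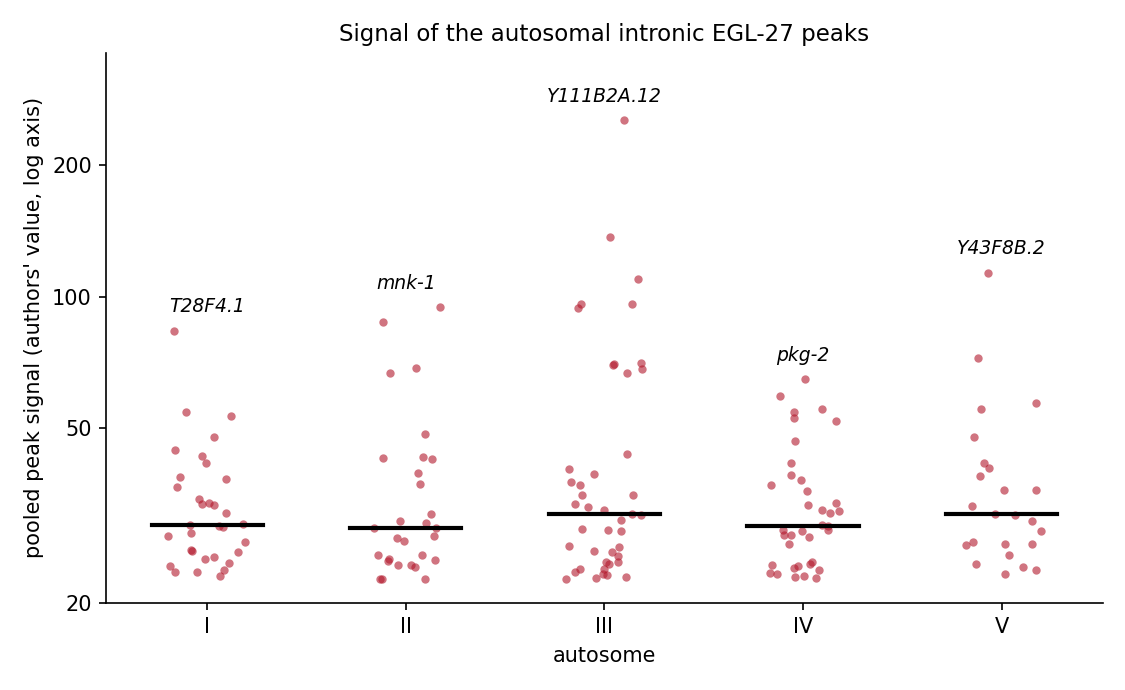
Signal of each of the 166 members (points, log axis) by autosome, with the median as a line and the host gene of the highest member named. The medians lie between 29.6 and 31.8, and the highest point, in Y111B2A.12 on chromosome III, is at 252.5.

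Of the 15 members of highest signal, 9 lay on chromosome III and 4 in the single gene pqn-41. The peak of highest signal in the whole pooled list, at 252.5, was intronic and lay in Y111B2A.12 at chrIII:12612536-12612810. It ranked 1 in each of the 3 replicates, with signals of 43.3, 84.8 and 127.5 in replicates 1, 2 and 3. Signals of separate lists are on scales that were set separately, so ranks are compared here and not heights. The member lay 3372 bp downstream of the nearest transcript 5′ end of its host, in an intron of 7076 bp. The next gene outside pqn-41 was Y43F8B.2 on chromosome V, at 113.5, with ranks 64, 11 and 33.

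The remaining members of this group lay in genes of several kinds, and those in zfp-1 and egl-27 are described further below. The member in mnk-1, which encodes a MAP kinase-interacting kinase, had a signal of 94.8 and ranks 42, 70 and 58, and was the highest on chromosome II. That in nhr-19, a nuclear hormone receptor gene, had 87.4 and ranks 37, 292 and 48. The member in T28F4.1 had 83.6 and was the highest on chromosome I, with ranks 34, 234 and 51. W06H8.6 held one at 72.2 with ranks 22, 122 and 152. The member in dhc-4, which encodes a dynein heavy chain, had 70.5 and ranks 603, 47 and 147. In spop-1, which encodes a relative of the ubiquitin ligase adaptor SPOP, the member had 70.0 and ranks 91, 170 and 126. All 15 were among the first 1500 peaks of every replicate and in the IDR list. They were picked by pooled signal, so this is a description. Their lowest placing was rank 603 in replicate 1, 292 in replicate 2 and 206 in replicate 3.

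The members lay in 127 host genes, of which 100 held a single member, 20 held 2, and 7 held 3 or more. Of the 13412 autosomal protein-coding genes with intron sequence in which a member could lie, 0.947% hosted one. Among the 4645 genes with at least 1000 bp of such sequence the share was 2.63%, from 122 hosts. A host with several members contributed peaks from the same gene, and these are not independent of each other.

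The gene pqn-41 encodes a glutamine- and asparagine-rich protein known for promoting the death of the male linker cell. It had 5 members in an intron of 7776 bp that is the first of at least 1 of its transcripts, with summits spread over 5158 bp. Their signals were 136.9, 109.7, 96.4, 96.2 and 30.8. The ranks of the highest were 27, 14 and 5 in replicates 1, 2 and 3, and those of the second 29, 15 and 66. The third ranked 4 and 10 in replicates 1 and 2 and 206 in replicate 3, while the fourth ranked 69, 84 and 29. The fifth overlapped the fourth by 190 bp and met the same replicate peaks.

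The gene daf-5, which encodes a Ski/Sno relative acting in the dauer branch of TGF-beta signalling, also had 5 members. They lay in an intron of 14446 bp, with summits spread over 11182 bp. Their signals were 67.0, 39.5, 29.6, 28.3 and 22.7, so only the first 2 passed the lowest IDR signal of 31.5. The highest ranked 75, 196 and 92, and the lowest had a peak in replicate 3 alone, at rank 1204. The second had no peak over its summit in replicate 2. The daf-5 group was thus lower and less even across replicates than that of pqn-41, in values only, with no test.

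The gene pkg-2, which encodes a cGMP-dependent protein kinase, had 4 members, at 64.8, 37.1, 24.7 and 24.3. The first was the highest on chromosome IV, with ranks 74, 181 and 223. In zfp-1, the worm homologue of the chromatin protein AF10, 3 members had signals of 94.3, 69.6 and 37.8. The first ranked 53, 73 and 34 and the second 19, 282 and 117, while the third had no peak in replicate 2. The forkhead factor gene fkh-7 had 3 members, from 28.49 to 35.95, and the phosphatase regulatory subunit gene ppfr-1 had 3, from 23.5 to 53.5.

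In egl-27 itself 3 members had signals of 68.8, 48.6 and 22.7. The first ranked 120, 150 and 68 in replicates 1, 2 and 3, and the second 62, 125 and 436. The third had no peak in replicate 1 and ranked 12964 and 604 in replicates 2 and 3. The transgene adds copies of this gene, so binding there and a higher copy number cannot be told apart. How far the transgene reaches beyond egl-27 is not given, so members in neighbouring genes could not be checked for this.

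Several hosts were signalling genes and regulators. Of 238 nuclear hormone receptor genes that could have hosted a member, 5 did, with 9 members in all. The 4 with the highest signal were nhr-19, nhr-46 (59.2 and 33.8), nhr-31 (29.9 and 28.2) and nhr-34 (29.3 and 28.5). Of 14 genes of insulin signalling, 2 were hosts, namely daf-16, the FOXO factor, with 33.3 and 28.9, and daf-2, the insulin receptor, with 23.8. The daf-2 member had a peak in replicate 2 alone, at rank 1101. Of 19 genes of the BMP and TGF-beta pathways, 2 were hosts, daf-5 and daf-14. The latter encodes a Smad and its member had 39.2. The member in mpk-1, the ERK kinase gene, which was named after its value was seen, had 68.2.

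The other lists each had few hosts. Among 41 genes of axon guidance and cell adhesion, 3 were hosts: hmr-1, a cadherin, at 29.7, smp-1, a semaphorin, at 24.6, and unc-33, a CRMP relative, at 23.2. Of 26 RNA-binding protein genes, 2 were hosts, larp-1 at 66.9 and the splicing regulator asd-2 at 47.7. Single hosts were egl-27 among 9 NuRD and MEC complex genes, zfp-1 among 36 chromatin regulators and pqn-41 among 35 pqn genes. Others were col-159 among 59 cuticle collagens (31.9), sea-2 among 11 heterochronic genes (27.7), pde-4 among 29 synaptic genes (28.02) and unc-52, perlecan, among 23 muscle genes (25.7). No host was found among 6 GATA factor, 8 Hox or Hox cofactor, 27 Wnt pathway, 42 ceh homeobox, 29 ion channel, 20 seam cell or epidermal regulator and 16 ribosomal protein genes. The 1221 chemoreceptor genes had none either. Most lists are too small to be read against the background of 0.947%. That background was 2.63% among genes with at least 1000 bp of eligible intron, and the intron lengths of the lists are not given. No list was tested, the larger ones included.

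Of the 127 hosts, 31 (24.4%) also had a promoter peak among the first 1500. Over all 13412 eligible genes the share was 4.18%, and over those with at least 1000 bp of eligible intron 5.06%. The rank limit that chose the members chose the promoter peaks too, so these shares are a description. Another of the first 1500 peaks lay within 5000 bp of 81 members (48.8%), against 29.8% of promoter peaks and 35.0% of intergenic ones.

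In the replicates, the mean recovery of members was within 1 percentage point of that of promoter and intergenic peaks. A member was recovered when its pooled summit lay inside a peak among the first 1500 of a replicate. Replicates 1, 2 and 3 recovered 80, 75 and 116 of the 166 members, which is 48.2%, 45.2% and 69.9%. The mean was 54.4% ± 13.5 (SD, n = 3). Promoter peaks had 45.2%, 52.4% and 65.6%, and 140, 126 and 196 of the 280 intergenic peaks were recovered. The difference of promoter minus intronic recovery was -0.0091 percentage points ± 6.31 (SD, n = 3; two-sided exact sign-flip permutation p = 1.0). That of intergenic minus intronic was 0.58 ± 1.07 (exact permutation p = 0.75). With 3 replicates this test cannot go below 0.25. The pooled list was made from the same 3 libraries, so recovery describes how evenly they contributed.

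**Figure D2:**
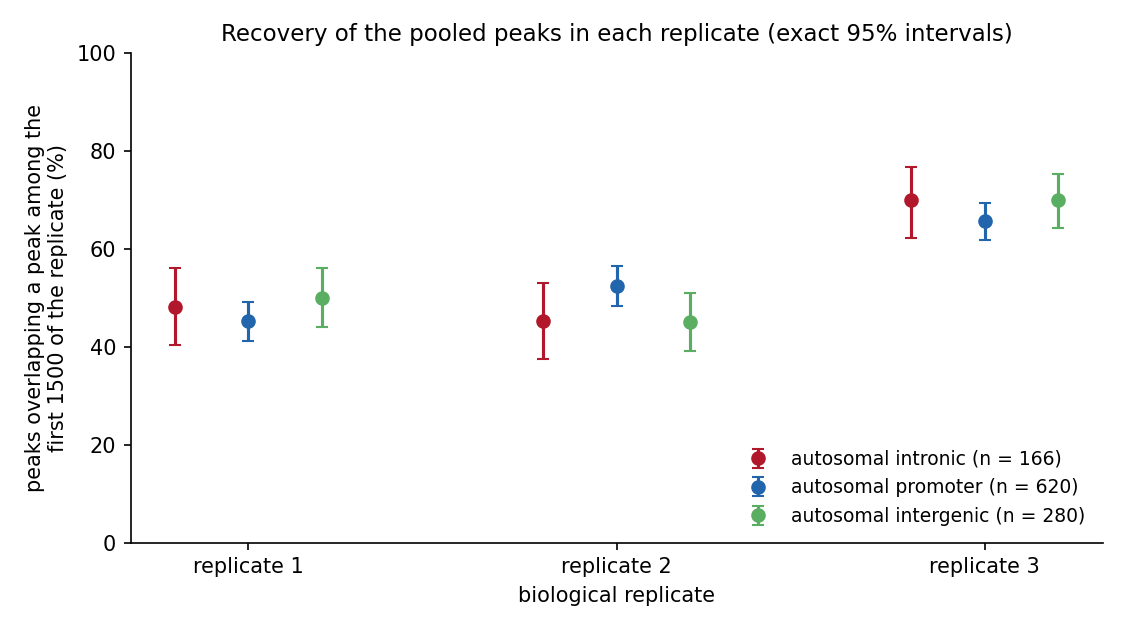
Share of pooled peaks of each class whose summit lies inside a peak among the first 1500 of each replicate. The exact 95% binomial intervals cover counting error only. Replicate 3 lies highest in every class, at 69.9% for the intronic peaks, and the intervals of the 3 classes overlap within each replicate.

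Counted by member, 38 were in the first 1500 of all 3 replicates, 44 of 2, 69 of 1 and 15 of none. In the full relaxed lists, which keep background peaks, 123 members had a peak over the summit in all 3 replicates, 36 in 2 and 7 in 1. The median rank of the peak over the summit was 927 in replicate 1, 1451.5 in replicate 2 and 746 in replicate 3. Replicate 3, which differs in source, placed the members highest.

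The introns that held members were long. Their length had a median of 4261 bp, from 131 to 19927 bp. The comparison group was the 3884 autosomal intronic peaks ranked below 1500, which met the same rule for position and had a median signal of 10.2. They come from a relaxed list that keeps background, and their introns had a median of 1163.5 bp. The make-up of all eligible intron sequence by intron length or intron number was not measured. Of the members, 145 (87.3%) lay in an intron of at least 1000 bp, against 54.9% of the lower-ranked peaks (odds ratio 5.67, Fisher's exact test, two-sided, p = 1.5e-18).

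**Figure D3:**
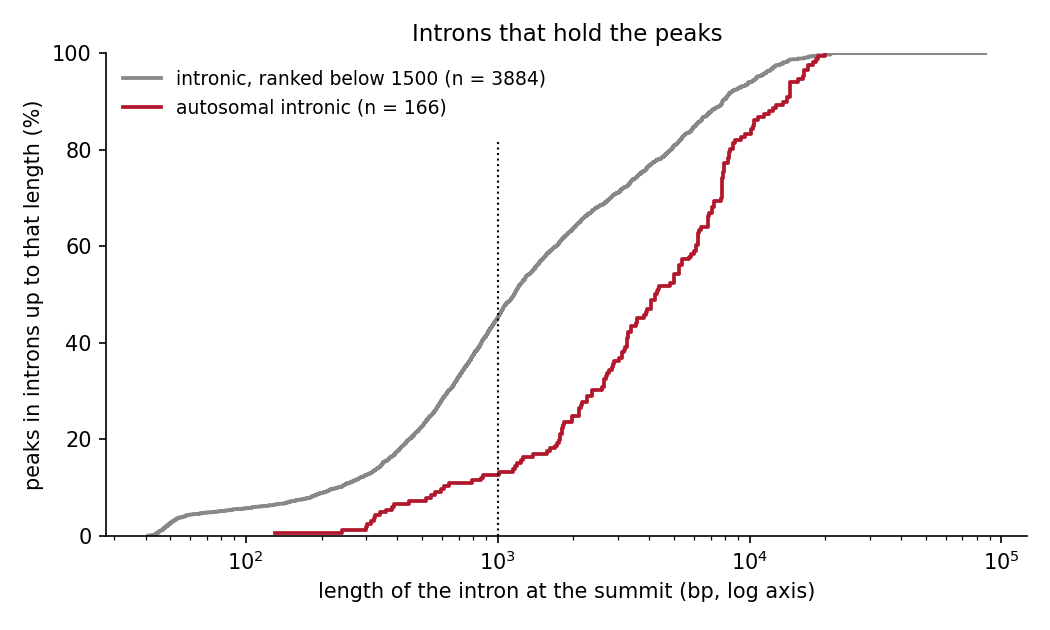
Cumulative share of peaks by the length of the intron at the summit (log axis), for the 166 members and the 3884 lower-ranked intronic peaks. The dotted line marks 1000 bp, and the members' curve lies to the right, with a median of 4261 bp against 1163.5 bp.

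Members lay in introns that are first in a transcript more often. The intron was the first of a host transcript for 91 members (54.8%) and 27.7% of the lower-ranked peaks (odds ratio 3.17, Fisher's exact p = 1.1e-12). First introns are often long, and within introns of at least 1000 bp the shares were 60.0% and 42.0% (odds ratio 2.07, exact p = 2.9e-05). A transcript 5′ end of the same gene lay further downstream for 110 members (66.3%) against 32.1% (odds ratio 4.16, exact p = 1.8e-18). Within introns of at least 1000 bp these shares were 75.9% and 52.8% (odds ratio 2.81, exact p = 3.8e-08). The test of downstream 5′ ends and both comparisons within long introns were added after the data were seen.

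The nearest 5′ end of any protein-coding transcript lay between 509 and 20196 bp away, with a median of 1838 bp against 1873 bp for the lower-ranked intronic peaks, and this distance was not tested. It belonged to the host for 148 members. It was under 1000 bp away for 23 members, from 1000 to below 2000 bp for 70, from 2000 to below 5000 bp for 54 and further for 19. Within the intron, read in the direction of transcription, 36 summits lay in the first 25% of the length, 57 in the next, 54 in the next and 19 in the last. The distance to the nearest splice site had a median of 1243 bp.

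Non-coding RNA genes lay near some members. The rule barred summits in exons of non-coding genes, in the members and in the lower-ranked peaks. The shares below therefore leave out peaks on those exons. An annotated ncRNA gene lay within 500 bp of the summit of 29 members (17.5%) against 6.57% of the lower-ranked peaks (odds ratio 3.01, Fisher's exact test, p adjusted over 8 gene types = 2.2e-05). For snoRNA genes, whose RNAs guide the modification of other RNAs, the count was 8 (4.82%) against 0.618% (adjusted exact p = 1.2e-04). They lay in pxn-1, C08D8.1, Y55F3BR.2, akap-1, cutl-18, F01D5.10, mpk-2 and egl-27, with signals from 22.7 to 39.0. For miRNA genes it was 4 (2.41%) against 0.180% (adjusted exact p = 0.0019). They were mir-229 in gcn-1 (40.3), mir-90 in K01F9.2 (29.1), mir-58a in Y67D8A.2 (27.2) and mir-2 in ppfr-1 (26.1), and were named after their values were seen.

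The counts for snoRNA and miRNA genes rest on members outside the first 1500 peaks of at least 1 replicate. Most members share this property, because only 38 (22.9%) of the whole set were in the first 1500 of all 3 replicates. Whether it was more frequent among members near these genes was not tested. When members were limited to those among the first 1500 of replicates 2 and 3, or of replicates 1 and 2, none was left near either kind of gene, and 1 of each was left with replicates 1 and 3. Near ncRNA genes 7 members were left each time, of 48 without replicate 1, 64 without replicate 2 and 46 without replicate 3. Their share stayed above that of the lower-ranked peaks, but the difference no longer passed (adjusted exact p = 0.30, 0.39 and 0.25). Far fewer members were tested in these sets. In introns of at least 1000 bp the odds ratio was 12.1 for miRNA genes (adjusted exact p = 0.012), 1.95 for ncRNA genes (adjusted exact p = 0.048) and 4.07 for snoRNA genes (adjusted exact p = 0.15). A tRNA gene lay near 3 members, in inft-2, F52C9.5 and rsa-2, all in introns under 1000 bp (1.81% against 0.644%, adjusted exact p = 0.21).

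The summits were richer in GA repeats than their surroundings. For each member the 101 bp at the summit were compared with the 101 bp centred 300 bp to the right, by the exact McNemar test, two-sided, adjusted over 14 motifs. The 14 motifs were chosen with earlier results of these data known, and the p-values do not cover that choice. A GA repeat stood at 67 summits (40.4%, exact 95% interval 32.8 to 48.2) and in 12 flanks (7.23%), with adjusted exact p = 2.1e-11. Of 195617 windows of the same length tiled over eligible intron sequence, 4.01% held it. A run of alternating G and A of at least 10 bases stood at 15 summits, and the longest run had 32 bases.

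The 9-base motif CTGCGTCTC stood at 27 summits (16.3%, 11.0 to 22.8) and in 1 flank (0.602%), with adjusted exact p = 1.5e-06. Its share of all intron windows was 0.461%. The E-box CACGTG stood at 13 summits (7.83%) and in 2 flanks, with adjusted exact p = 0.034, against 1.34% of intron windows. The E-box call did not hold under most alternatives. Its summit to flank ratio of 6.5 was 4.5 with 1 member per host gene, 7.0 with a window of 25 bp on each side and 3.0 at the IDR list's length (adjusted exact p = 0.23, 0.33 and 0.81). It was 2.8 with protein-coding exons only, 6.0 with a promoter window of 2000 bp and 6.0 with a flank of similar GC content (adjusted exact p = 0.18, 0.060 and 0.44). Without replicates 1, 2 and 3 it was 2.0, 7.0 and 5.0 (adjusted exact p = 1.0, 0.33 and 0.61). The more general E-box CANNTG stood at 62 summits and in 45 flanks (adjusted exact p = 0.20), against 24.8% of intron windows.

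A GATA site stood at 33 summits (19.9%) and in 34 flanks (20.5%), with adjusted exact p = 1.0, and in 17.7% of all intron windows. The exact 95% interval of the summit share alone was 14.1 to 26.8. A site stood at the summit only in 27 members and in the flank only in 28, so a modest difference may have gone undetected. Counts for the TATA box (TATAAA) were 7 summits and 16 flanks, and for the homeodomain core (TAATTA) 1 and 9, with adjusted exact p = 0.22 and 0.075. In all intron windows their shares were 12.2% and 5.30%. The 7 other motifs were an AP-1 site (TGACTCA or TGAGTCA), a forkhead site (TGTTTAC), an E2F site (TTTCGCGC or TTTGGCGC), a T-box site (TCACACCT), an Sp1/KLF site (GGGCGG or GGGTGG), a nuclear receptor half-site (AGGTCA) and a Hox/Pbx site (TGATNNAT). None of these passed, with adjusted exact p from 0.50 to 1.0 and shares of all intron windows from 0.184% to 6.59%. A match is a run of letters and does not show that a factor binds there.

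**Figure D4:**
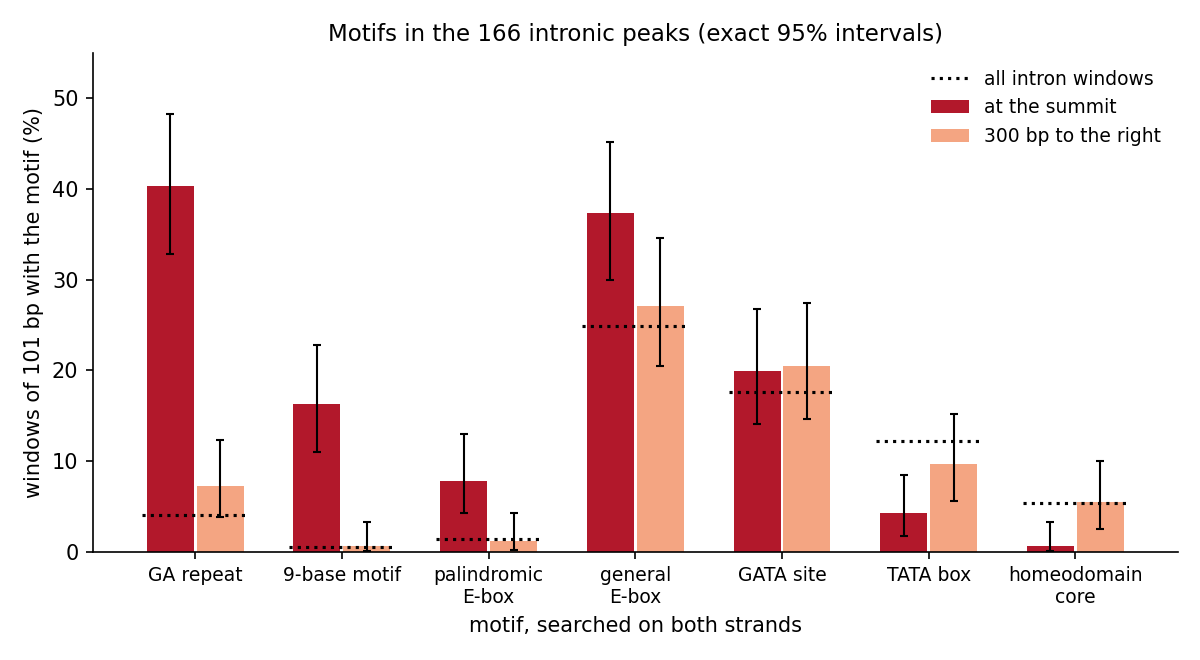
Share of the 166 members with each of 7 motifs in the 101 bp at the summit and in the 101 bp centred 300 bp to the right, with exact 95% binomial intervals, and the share of all eligible intron windows as dotted lines. GA repeats are at 40.4% against 7.23% and the 9-base motif at 16.3% against 0.602%, while the GATA bars are level at 19.9% and 20.5%.

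Together, the GA repeat and the 9-base motif covered less than the whole set. Both stood at 14 summits, the GA repeat alone at 53 and the 9-base motif alone at 13, and 86 summits (51.8%) had neither. Among the 15 highest members, 8 had a GA repeat, 4 had the 9-base motif and 4 had neither. Of the 83 members with the higher signal, 40 had a GA repeat and 20 the 9-base motif, against 27 and 7 of the 83 with the lower signal, given as a description because signal chose the members. By autosome the GA repeat was at 17 of 33 summits on I, 9 of 29 on II, 20 of 43 on III, 10 of 37 on IV and 11 of 24 on V.

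Across all 2080 six-base words, merged with their reverse complements, 32 (1.54%) stood at summits more often and 34 (1.63%) less often than in flanks, after adjustment of the same exact test over all words. The leading word was GAGAGA. It was followed at 58 summits and 11 flanks by AGAGAG, at 49 and 10 by AGAGAC and at 38 and 4 by ACGCAG. The last is part of the reverse complement of the 9-base motif. The leading words in the other direction were rich in A and T, such as AAAATT at 19 summits and 61 flanks. The base composition moved with these results: the median GC content was 45.5% at summits and 35.6% in flanks, and it was higher at the summit in 132 members and lower in 30 (exact sign test p = 1.8e-16). In the 76 members whose flank was within 10 percentage points of the summit's GC content, a GA repeat stood at 22 summits and 7 flanks (adjusted exact p = 0.021). There the 9-base motif stood at 5 summits and no flank (adjusted exact p = 0.30). With only 5 members carrying it, this test could not have passed the threshold, so it does not decide the question.

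**Figure D5:**
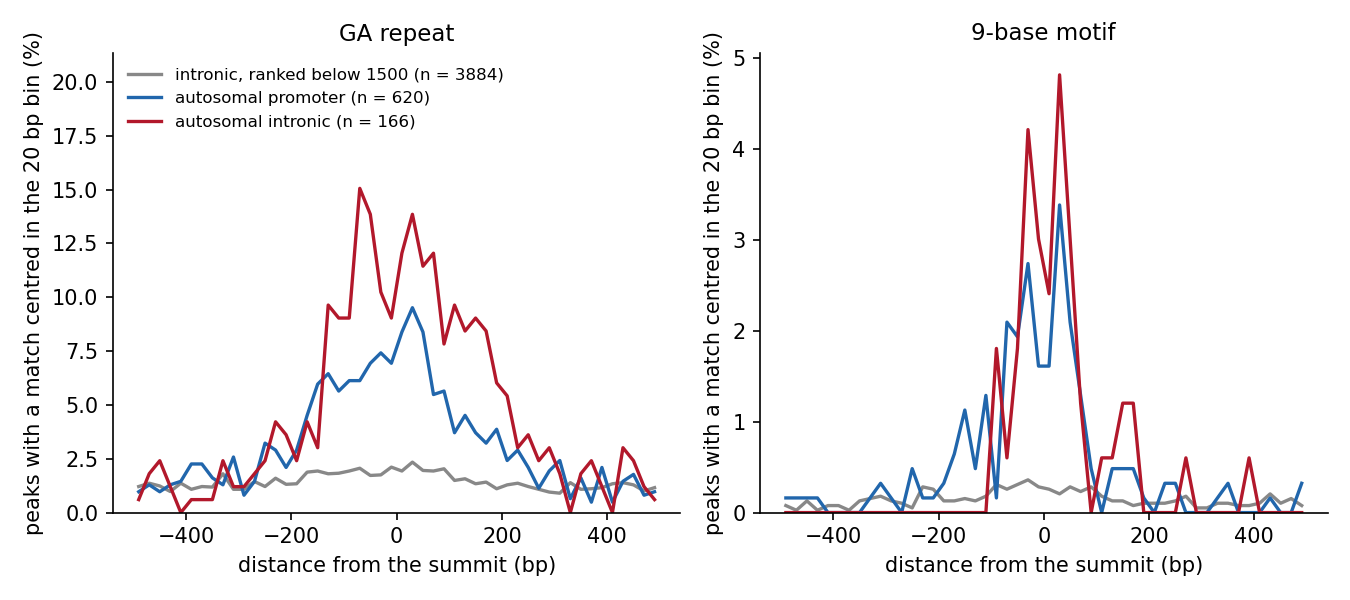
Share of peaks with a GA repeat (left) or the 9-base motif (right) centred in each 20 bp bin by distance from the summit, for members, promoter peaks and lower-ranked intronic peaks. In the members the GA repeat reaches 15.1% in a bin and the 9-base motif 4.82%, both within 100 bp of the summit, while the lower-ranked peaks stay at or under 2.34% and 0.360% within 80 bp of the summit.

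The same motifs marked the promoter and intergenic peaks. GA repeats stood at 30.6% of promoter summits and 54.6% of intergenic summits, with the members between them at 40.4%. The odds ratios were 1.53 and 0.56, with adjusted Fisher's exact p = 0.28 and 0.12 over 28 tests. With a window of 100 bp on each side, both differences passed (members 58.4%, promoter 43.7%, intergenic 73.2%, adjusted exact p = 0.023 for each). The 9-base motif stood at 11.0% of promoter and 14.3% of intergenic summits (adjusted exact p = 0.56 and 1.0). A p that misses the threshold does not show that the classes are alike.

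Against the lower-ranked intronic peaks, the members differed in 7 of 14 motifs. Here too the p-values do not cover the choice of motifs, which was made with earlier results known. GA repeats stood at 8.32% of the lower-ranked summits (odds ratio 7.46, adjusted Fisher's exact p = 3.0e-26), and the 9-base motif at 1.26% (odds ratio 15.2, adjusted exact p = 1.5e-18). CACGTG was at 1.73%, CANNTG at 27.5% and the Sp1/KLF site at 3.86%, all lower than in the members, while TATAAA at 10.1% and TAATTA at 4.81% were higher. The lower-ranked summits had a median GC content of 34.7%. Among peaks with a summit GC content of 40 to 50%, which left 87 members and 886 others, the GA repeat (46.0% against 15.3%) and the 9-base motif (16.1% against 2.60%) still passed, and the other 5 did not.

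The orientation of the motifs to the host gene was counted where the motif stood on a single strand. The GA repeat was on the coding strand of the host at 22 of 60 members (36.7%, exact 95% interval 24.6 to 50.1, exact binomial p = 0.052). In lower-ranked intronic peaks it was at 118 of 307 (38.4%). The 9-base motif was on the coding strand at 18 of 25 members (72.0%, 50.6 to 87.9, exact binomial p = 0.043), and at 24 of 46 lower-ranked peaks (52.2%). The second count was added after the data were seen, and adjusted over both, neither passed (adjusted exact binomial p = 0.052 for each).

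No member rested on repeated sequence, meaning that more than 50% of its 36-base words occur elsewhere in the genome, and with 0 of 166 the upper exact 95% bound is 2.20%. A share of 1.13% of promoter peaks and 0.747% of lower-ranked intronic peaks did. The median share of summit bases soft-masked as repeats or low complexity in the reference was 17.3% in the members and 41.6% in the lower-ranked peaks.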

How the data were processed

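Peaks had been called by the authors on each replicate and on the pooled replicates, each time with a control alignment that was not used here. Per the deposited library notes, the relaxed lists keep background as input for the IDR procedure. No source used here names the aligner, the caller, the IDR cutoff or the read depth, and the depth behind a single height is therefore unknown. Each peak has a signal height and a -log10 q-value, both the authors' deposited values. Signal ranked the peaks within a list, and the -log10 q-values were not used because many were tied.

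The ce11 lists were placed on WBcel235 with the Ensembl annotation, release 115. Peaks at the same signal were ordered by chromosome and start. The members, gene lists, motifs and tests were chosen with earlier results of these data known, and the gene lists were not tested. A further list is not reported here. The genes named were the hosts of the 15 members of highest signal, of the highest on each autosome and of at least 3 members, up to 4 hosts per list, egl-27, and the peaks on either side of the rank limit. Others were named after their values were seen.

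Motif shares were compared by the exact McNemar test between summit and flank and by Fisher's exact test between classes, two-sided, with Benjamini-Hochberg adjustment within each family and a threshold of 0.05. The sign test of GC content left out 4 ties. A replicate peak was matched to a pooled peak, for ranks and for recovery, when the pooled summit lay inside it. A peak is no replicate of the condition. The p-values and intervals cover counting error over peaks, not the spread between worms. Alternatives covered the rank limit, the promoter window, exon definition, window size, flank side, recovery rule and each replicate left out. The comparisons at similar GC content were added after the data were seen. Python 3.11.15, numpy 2.4.6, pandas 2.3.3 and SciPy 1.17.1 were used.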

Additional observations from a re-analysis of the deposited data

How the results depend on the processing

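The GA repeat and the 9-base motif stayed past the threshold against flanks and lower-ranked intronic peaks under every alternative run, with a single exception. It was the 9-base motif in the members with a flank of similar GC content, where too few members carried it for the test to pass. The shares of long introns, of first introns and of downstream 5′ ends, and the GC difference, kept their direction and their call under every alternative run. The member count was 79 with as many peaks as the IDR list holds and 356 with the first 3000. Leaving out a replicate, by keeping members among the first 1500 of both other replicates, left from 46 to 64.

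Motifs less frequent at summits numbered 1 rather than 0 with a window of 100 bp and with 1 member per host gene. Motifs more frequent numbered 1 rather than 3 with a flank of similar GC content, where only 76 members were tested. Words of 6 bases numbered 15 and 12, more and less frequent, at the IDR list's length, and from 1 to 8 and from 0 to 5 with a replicate left out, where fewer members were tested. Against the other classes, 1 motif was higher and 1 lower with a window of 100 bp. Against lower-ranked intronic peaks, 0 motifs were lower with a window of 25 bp, 2 were higher and 0 lower at a GC content of 40 to 50%, and 3 and 0 with any replicate left out.

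GATA sites changed side without passing. The summit to flank ratio was 1.19 with a promoter window of 2000 bp and 1.91 with a flank of similar GC content. The odds ratio against promoter peaks was 0.96 with a window of 25 bp and from 0.74 to 1.21 without a replicate, and against lower-ranked peaks 0.95 and from 0.65 to 1.101. The odds ratio of TATAAA was 1.48 at a GC content of 40 to 50%. The cause was not tested.

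The results for non-coding RNA genes were the least stable. At the IDR list's length the odds ratios were 1.63 for snoRNA, 5.08 for miRNA and 2.44 for ncRNA genes, and none passed. Within 200 bp the miRNA value was 0.0. Without a replicate they ran from 0.0 to 2.55, from 0.0 to 8.79 and from 1.75 to 2.55, and for tRNA genes from 0.0 to 3.43. In introns of at least 1000 bp they were 4.07 for snoRNA and 0.0 for tRNA genes, which did not pass, and 12.1 for miRNA and 1.95 for ncRNA genes, which did. The coding-strand share of GA repeats was 35.4% with a window of 100 bp and passed without adjustment over both motifs (exact binomial p = 0.011). The lower-ranked peaks were not counted with that window.

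No pairing of samples between conditions was possible because all 3 samples form 1 group. Read depth was not given, so a missing peak in a replicate cannot be told apart from one below its detection limit.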
